A study of Mus musculus with 16 samples.

Results

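The amino acid stress and tRNA synthetase genes described here are 37 mouse genes taken by symbol from the 24063 genes listed in each of the deposited tables. They comprise 4 transcription factors of the response, 5 stress effectors and feedback regulators, 6 enzymes of serine, one-carbon and asparagine synthesis, 4 amino acid transporters and 18 cytosolic tRNA synthetases. They were measured by RNA sequencing of total RNA depleted of ribosomal RNA in AtT-20 cells, a mouse pituitary corticotrope line. Cells expressing 3x flag-Pax7 (2 libraries, no treatment) were set against cells expressing 3x flag-Neo (2 libraries, no treatment). Cells expressing 3x flag-ER-Pax7, a fusion that 4-hydroxytamoxifen switches on, were measured before induction (0 h, no treatment) and after 12, 24 and 96 h of 4-hydroxytamoxifen, in groups of 3 libraries. Pax7 is the transcription factor that specifies melanotropes, the neighbouring cell type of the pituitary intermediate lobe. Each construct is represented by 1 cell population, and no library of cells without ER-Pax7 was treated, so the actions of Pax7, of the drug and of time in culture cannot be told apart.

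When amino acids run short or unfolded proteins gather in the endoplasmic reticulum, kinases such as Gcn2 and Perk phosphorylate the translation initiation factor eIF2. Bulk protein synthesis then slows, while translation of the mRNA for Atf4 increases, so the Atf4 protein can rise with little change of its mRNA. Atf4, with partners of the C/EBP family, binds composite elements in the promoters of genes for amino acid synthesis and uptake, for tRNA charging and for feedback on the response. Corticotropes and melanotropes make large amounts of the prohormone Pomc, so their secretory pathway and their demand for charged tRNA are both high.

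The sequence letters to which Atf4 binds were looked up first, since they are the feature by which many of these genes are grouped. A RefSeq promoter window (GRCm38.p6, 250 bases before to 50 after a start) was matched for 29 of the 37 genes. Distances are from the start of the window's own transcript or promoter. For Yars that start lies past the gene start used for counting reads (129189795). The motif TGATGNAA, the C/EBP-ATF response element, was searched on both strands and occurred in the windows of 9 of the 29 genes (31%), against 4.51% of 27025 genes with a window. The holders were 5 of 11 synthetases, 2 of 5 stress effectors, 1 of 6 enzymes, 1 of 3 transporters and 0 of 4 transcription factors. The E-box CACGTG, which does not overlap the first motif in any of these windows, occurred in 3 of 29 (10.3%), against 8.09% of all genes. The endoplasmic reticulum stress element, likewise searched on both strands, occurred in 0 of 29, against 0.137%. The stretches around the first motif are shown because they link the best known Atf4 targets with the synthetases. They read 5′ to 3′ on the strand of the gene with the motif in capitals, which in some genes is its reverse complement, beginning with TT.
Chac1, chr2:119351029-119351076, plus strand, motif from 193 bases before the start: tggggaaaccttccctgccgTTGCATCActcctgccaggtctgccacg
Trib3, chr2:152344028-152344057, minus strand, motif from 14 bases past the start: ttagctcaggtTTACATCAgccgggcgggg
Asns, chr6:7693210-7693252, minus strand, motif from 23 bases before the start: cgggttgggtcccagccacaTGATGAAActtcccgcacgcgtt
Slc7a11, chr3:50443652-50443699, minus strand, motif from 66 bases before the start: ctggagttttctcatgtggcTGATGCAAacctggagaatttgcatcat
Slc7a11, chr3:50443633-50443680, minus strand, motif from 47 bases before the start: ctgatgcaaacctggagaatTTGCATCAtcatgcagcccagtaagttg
Aars, chr8:111033710-111033757, plus strand, motif from 112 bases before the start: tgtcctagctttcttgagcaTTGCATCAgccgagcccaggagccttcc
Aars, chr8:111033840-111033869, plus strand, motif from 9 bases past the start: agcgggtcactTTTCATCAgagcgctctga
Gars, chr6:55037951-55037998, plus strand, motif from 30 bases before the start: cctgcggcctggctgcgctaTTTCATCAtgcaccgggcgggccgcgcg
Iars, chr13:49682126-49682155, plus strand, motif from 7 bases past the start: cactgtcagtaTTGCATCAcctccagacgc
Tars, chr15:11399659-11399693, minus strand, motif from 15 bases before the start: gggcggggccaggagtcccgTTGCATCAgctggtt
Yars, chr4:129189895-129189924, plus strand, motif from 3 bases past the start: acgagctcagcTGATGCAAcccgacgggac
A match is a description of letters and not of binding, and its absence says nothing of the factor. The windows of Aars, Iars and Tars held the E-box as well.

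In the ER-Pax7 libraries, values are scaled reads, that is reads over exons scaled by the authors to a common library total and here divided by a TMM factor, from 61.37 M to 88.70 M read mates per library. In the Pax7 and Neo libraries, values are FPKM over whole gene bodies, introns included, divided by TMM factors. Levels are therefore not compared between the tables. All 7 corticotrope markers searched had values above 0 in every group. Crhr1 had only 0.05 FPKM in each Pax7 library, under the filter of 0.1 FPKM. The summed level was 87177 to 111480 scaled reads in the ER-Pax7 libraries, most of it Pomc. The 6 fibroblast genes summed to 18.0 to 23.7 scaled reads at 96 h and 23.6 to 32.1 at 0 h. Of these, the collagen gene Col1a1 was lower at 96 h (log2 difference -0.42), and Pdgfra (-0.50) was not called. Col1a2 and Dcn were listed at 0 in all libraries of both groups. Col3a1 and Lum went the other way, from 0 in each 0 h library to at most 0.21 and 0.2 scaled reads at 96 h. These values lay under the filter of 1 scaled read. Of 6 macrophage and lymphocyte genes, 5 were listed in the Pax7 and Neo table, with a sum of 0.315 to 0.436 FPKM in Pax7 cells and 0.182 to 0.188 FPKM in Neo cells. Cd68, a lysosomal protein of macrophages, was higher in Pax7 cells (log2 difference 0.77), while Ptprc and Cd3e were listed at 0. The part of these genes' cells in the results was not tested. Trib3 and Ddit3, the markers given for the gene group, had values above 0 in every library. A gene was called where limma's adjusted p (Benjamini-Hochberg over all genes tested) was under 0.05. All 37 genes passed the filter on low values, and log2 differences are the first-named group minus the second, of values with a pseudocount of 1 scaled read or 0.1 FPKM.

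Before induction the 37 genes spanned a wide range of levels. Per kilobase of exon, Asns (asparagine synthetase) had the highest level of the 37, at 4444 ± 143 scaled reads in ER-Pax7 cells at 0 h (SD, n = 3). Psat1 and Gars, the enzymes that make phosphoserine and glycyl-tRNA, followed at 2609 ± 36.5 and 2507 ± 49.8, and Atf4 itself stood at 2397 ± 81.9. Gars and Atf4, next to each other in this order, differed by less than the sum of their SDs. At the low end were Cebpb (124 ± 13.5), a partner of Atf4, Ppp1r15a (94.1 ± 4.64), which guides the phosphatase of eIF2, and Slc7a11 (74.5 ± 2.80), the cystine and glutamate exchanger. Trib3 (342 ± 3.65) and Ddit3 (339 ± 5.93) were neighbours that differed by less than their spread. The synthetases ran from Gars to Qars (201 ± 4.22).

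**Figure D1:**
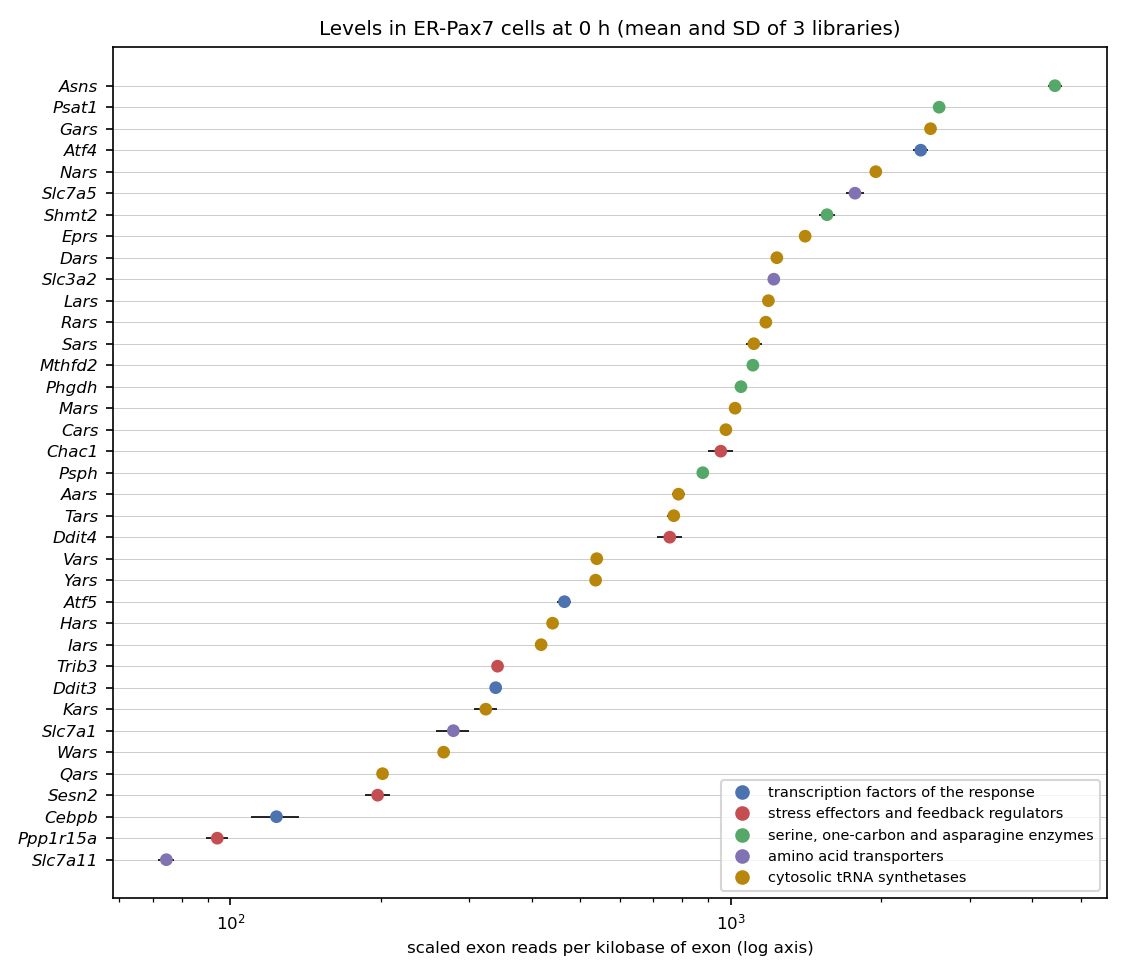
Mean level of each of the 37 genes in ER-Pax7 cells at 0 h, in scaled exon reads per kilobase of exon on a log axis, with the SD of 3 libraries as bars and colours for the 5 gene classes. Asns lies highest at 4444, and Slc7a11 lowest at 74.5.

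Pax7 cells were first set against Neo cells, which asks how cells expressing Pax7 differ from cells with a control construct. Among the 37 genes, 12 were higher and 11 were lower in Pax7 cells, with 14 not called, against 18.1% higher and 18.5% lower (36.6% in all) of 13393 genes tested. The members' share was not tested against that of all genes. The differences were small and went both ways, with a median log2 difference of -0.0006 for the 37 genes and 0.0027 for all genes, and no member reached a 2-fold difference. Only Ddit3, Trib3 and Chac1 among the 37 exceeded 0.5 in size on the log2 scale, as did 10.1% of all genes. The groups did not overlap for 34 of the 37 genes, against 73.8% of all genes. In bulk RNA such as this, fewer cells of a kind and less RNA per cell cannot be told apart.

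**Figure D2:**
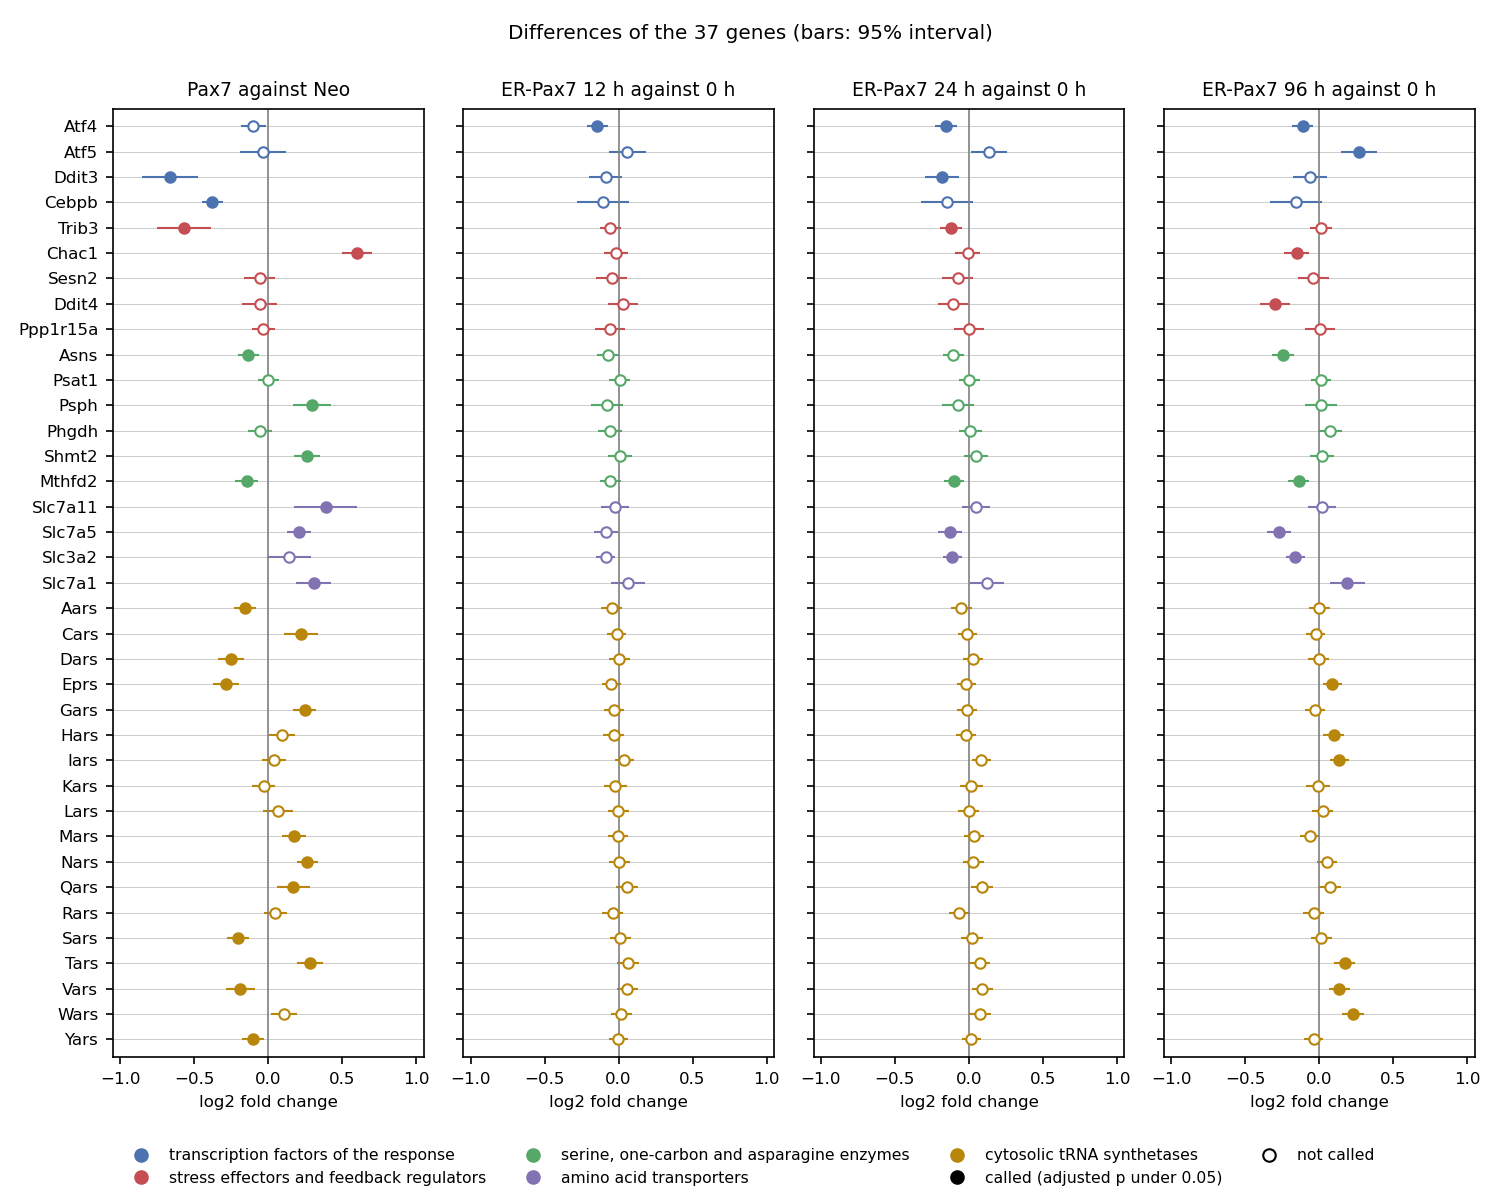
Log2 difference of each of the 37 genes in Pax7 against Neo cells and in ER-Pax7 cells at 12, 24 and 96 h against 0 h, with 95% intervals as bars and filled points for called genes. Ddit3 (-0.67) and Chac1 (0.60) mark the extremes in the first panel, and no gene passes 0.30 in size in the other 3 panels.

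Of the 4 transcription factors, 2 were lower in Pax7 cells, against 18.5% of all genes. Ddit3, the pro-apoptotic factor CHOP, had 17.2 and 15.1 FPKM in Pax7 cells, against 25.7 and 25.6 FPKM in Neo cells. Both Pax7 libraries lay well below both Neo libraries, and Ddit3 was lower by limma (log2 difference -0.67, SE 0.07, adjusted p = 0.00712). The span of Ddit3 overlaps that of Mars by 68 bases on the opposite strand, and reads were counted without regard to strand. The part of this overlap in the result was not tested. Cebpb had 49.4 and 49.7 FPKM in Pax7 cells and 64.6 and 64.2 FPKM in Neo cells, again without overlap (-0.38, SE 0.03, adjusted p = 0.00397). Atf4 had 194 and 193 FPKM in Pax7 cells and 209 and 207 FPKM in Neo cells, groups that did not overlap, but the difference was not called (-0.10, 95% interval -0.18 to -0.02, adjusted p = 0.0658). Atf5, a factor induced in parallel with Atf4, had overlapping groups at 36.0 ± 2.03 FPKM in Pax7 cells and 36.8 ± 1.60 FPKM in Neo cells (SD, n = 2 each).

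Among effectors and feedback regulators, the largest differences pointed in opposite directions. Chac1, which degrades glutathione, had 58.4 and 58.2 FPKM in Pax7 cells, against 39.5 and 37.5 FPKM in Neo cells. It was 1.51-fold higher in Pax7 cells (log2 difference 0.60, SE 0.04, adjusted p = 0.00338). Trib3, a pseudokinase that restrains Atf4 and Ddit3, had 18.0 and 16.0 FPKM in Pax7 cells, against 25.7 and 24.8 FPKM in Neo cells. Its level in Pax7 cells was 0.674-fold that in Neo cells (-0.57, SE 0.07, adjusted p = 0.00863), so Chac1 and Trib3, whose promoters both hold the Atf4 motif shown above, differed in sign. Sesn2, Ddit4 and Ppp1r15a, of which the first 2 restrain mTORC1, were not called, with log2 differences of -0.06, -0.06 and -0.03.

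**Figure D3:**
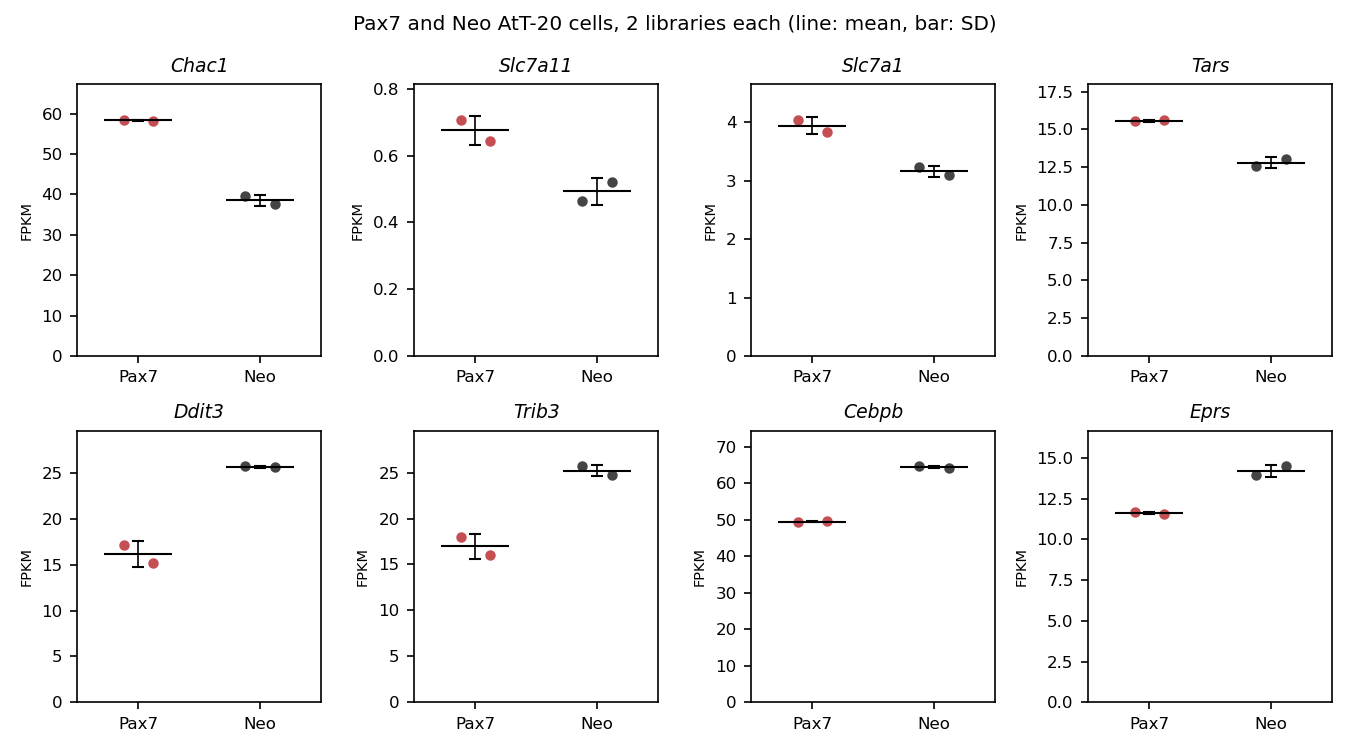
FPKM of 8 genes in each of the 2 Pax7 and 2 Neo libraries, with group means as lines and SDs as bars. Chac1, Slc7a11, Slc7a1 and Tars lie higher in both Pax7 libraries (58.4 and 58.2 FPKM for Chac1, against 39.5 and 37.5 in Neo), and Ddit3, Trib3, Cebpb and Eprs lower.

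The biosynthetic enzymes split by gene. Psph, the last step of serine synthesis, had 6.75 and 6.72 FPKM in Pax7 cells, against 5.27 and 5.68 FPKM in Neo cells, and was higher (log2 difference 0.29, SE 0.05, adjusted p = 0.0158). Shmt2, the mitochondrial enzyme that turns serine to glycine, was also higher, at 99.2 ± 0.281 FPKM in Pax7 cells and 82.6 ± 1.99 FPKM in Neo cells (0.26, adjusted p = 0.0095). Mthfd2, the next mitochondrial folate enzyme after Shmt2, was lower, at 20.1 ± 0.290 FPKM in Pax7 cells and 22.2 ± 0.177 FPKM in Neo cells (-0.15, adjusted p = 0.0244). Asns was lower too, at 50.0 ± 0.285 FPKM in Pax7 cells and 54.9 ± 0.182 FPKM in Neo cells (-0.14, adjusted p = 0.0248). Psat1 and Phgdh, the earlier steps of serine synthesis, were not called. The calls of Mthfd2 and Asns were lost whichever of the 4 libraries was left out.

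Of the transporters, 3 of 4 were higher in Pax7 cells and 0 lower by limma, beside the 18.1% and 18.5% of all genes. The counts were the same at an unadjusted p under 0.05, which 6582 of 13393 genes passed in either direction. Slc7a11 had 0.707 and 0.645 FPKM in Pax7 cells, against 0.465 and 0.522 FPKM in Neo cells (log2 difference 0.39, SE 0.08, adjusted p = 0.0264), a low level whose call ended whichever library was left out. Slc7a1, the carrier of arginine and lysine, had 4.04 and 3.84 FPKM in Pax7 cells, against 3.23 and 3.10 FPKM in Neo cells (0.31, SE 0.04, adjusted p = 0.0132). Slc7a5 and Slc3a2 form the light and heavy chains of the leucine exchanger LAT1. Slc7a5 was higher at 30.7 ± 0.0605 FPKM in Pax7 cells and 26.5 ± 0.555 FPKM in Neo cells (0.21, adjusted p = 0.0131). Slc3a2 had 61.5 ± 0.0343 FPKM in Pax7 cells and 55.7 ± 3.65 FPKM in Neo cells, without overlap, and was not called (0.14, 95% interval -0.01 to 0.29, adjusted p = 0.11).

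Of the 18 cytosolic synthetases, 6 were higher and 6 lower in Pax7 cells, against 18.1% and 18.5% of all genes. Their median log2 difference was 0.06. The higher ones were Tars (0.28), Nars (0.26), Gars (0.25), Cars (0.22), Mars (0.17) and Qars (0.17), which charge threonine, asparagine, glycine, cysteine, methionine and glutamine. The lower ones were Eprs (-0.29), Dars (-0.25), Sars (-0.20), Vars (-0.19), Aars (-0.16) and Yars (-0.10), which charge glutamate and proline, aspartate, serine, valine, alanine and tyrosine. Eprs, a fused synthetase of both amino acids, had 11.7 and 11.6 FPKM in Pax7 cells, against 13.9 and 14.5 FPKM in Neo cells (SE 0.03, adjusted p = 0.00821). Tars had 15.5 and 15.6 FPKM in Pax7 cells, against 12.6 and 13.1 FPKM in Neo cells (SE 0.03, adjusted p = 0.00853). With the fused Eprs, whose glutamyl part is class I and prolyl part class II, counted as class I, both structural classes were divided, with 3 higher and 3 lower among 10 class I enzymes, and 3 higher and 3 lower among 8 class II enzymes. The 8 synthetases of the multi-synthetase complex held 2 higher (Mars and Qars) and 2 lower (Eprs and Dars). The FPKM of Dars covers only a 5298-base transcript.

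These calls rest on 2 libraries per group. When each library was left out in turn, only Chac1 among the higher genes, and Ddit3, Cebpb, Trib3 and Eprs among the lower ones, kept their calls every time. Higher members numbered 2 without replicate 2 of Pax7, 5 without replicate 1 of Pax7 and 7 without replicate 2 of Neo. Lower members numbered 4 without either Pax7 library, 6 without replicate 1 of Neo and 7 without replicate 2 of Neo. With scaling by library totals instead, 13 members were higher and 4 lower, so the balance between directions depends on the scaling; of the 6 lower synthetases, only Eprs was then called.

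In ER-Pax7 cells the members called were 2.7%, 16.2% and 40.5% of the 37 genes at 12, 24 and 96 h, and their number grew with time as did that of all genes. At 12 h 0 genes were higher and 1, Atf4, was lower than at 0 h, against 2.92% higher and 3.61% lower (6.53% in all) of 15188 genes tested. At 24 h 0 were higher and 6 lower (Atf4, Ddit3, Trib3, Mthfd2, Slc7a5 and Slc3a2), against 5.66% and 7.92% (13.6% in all) of all genes. At an unadjusted limma p under 0.05, 0 were higher and 3 lower at 12 h, and 7 higher and 8 lower at 24 h. Among all 15188 genes, 2558 at 12 h and 3887 at 24 h passed this threshold in either direction. By edgeR on recovered reads, 0 were higher and 1 lower at 12 h, and 0 higher and 6 lower at 24 h. The edgeR share of all genes is not given here. Its 6 at 24 h held Asns (-0.11, edgeR adjusted p = 0.0406) in place of Mthfd2. At 96 h 8 were higher and 7 lower by limma, against 16.5% and 17.3% (33.8% in all). The largest difference of any member was -0.30 on the log2 scale, and member medians were -0.02, -0.0017 and 0.0065 at 12, 24 and 96 h, against 0.0014, 0.0039 and 0.0010 for all genes. The 3 comparisons share the 0 h libraries. Of the 6 lower at 24 h by the main limma fit, only Atf4 kept its call under every alternative and without each library. Lower members at 24 h numbered 2 without replicate 2 of 0 h, and 3 without replicate 1 of 0 h or replicate 1 or 2 of 24 h, while 1 member was higher without replicate 2 or 3 of 24 h. Higher members at 96 h numbered 5 without replicate 3 of 96 h. The groups did not overlap for 10, 12 and 21 members at 12, 24 and 96 h, against 20.3%, 28.2% and 45.9% of all genes.

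**Figure D4:**
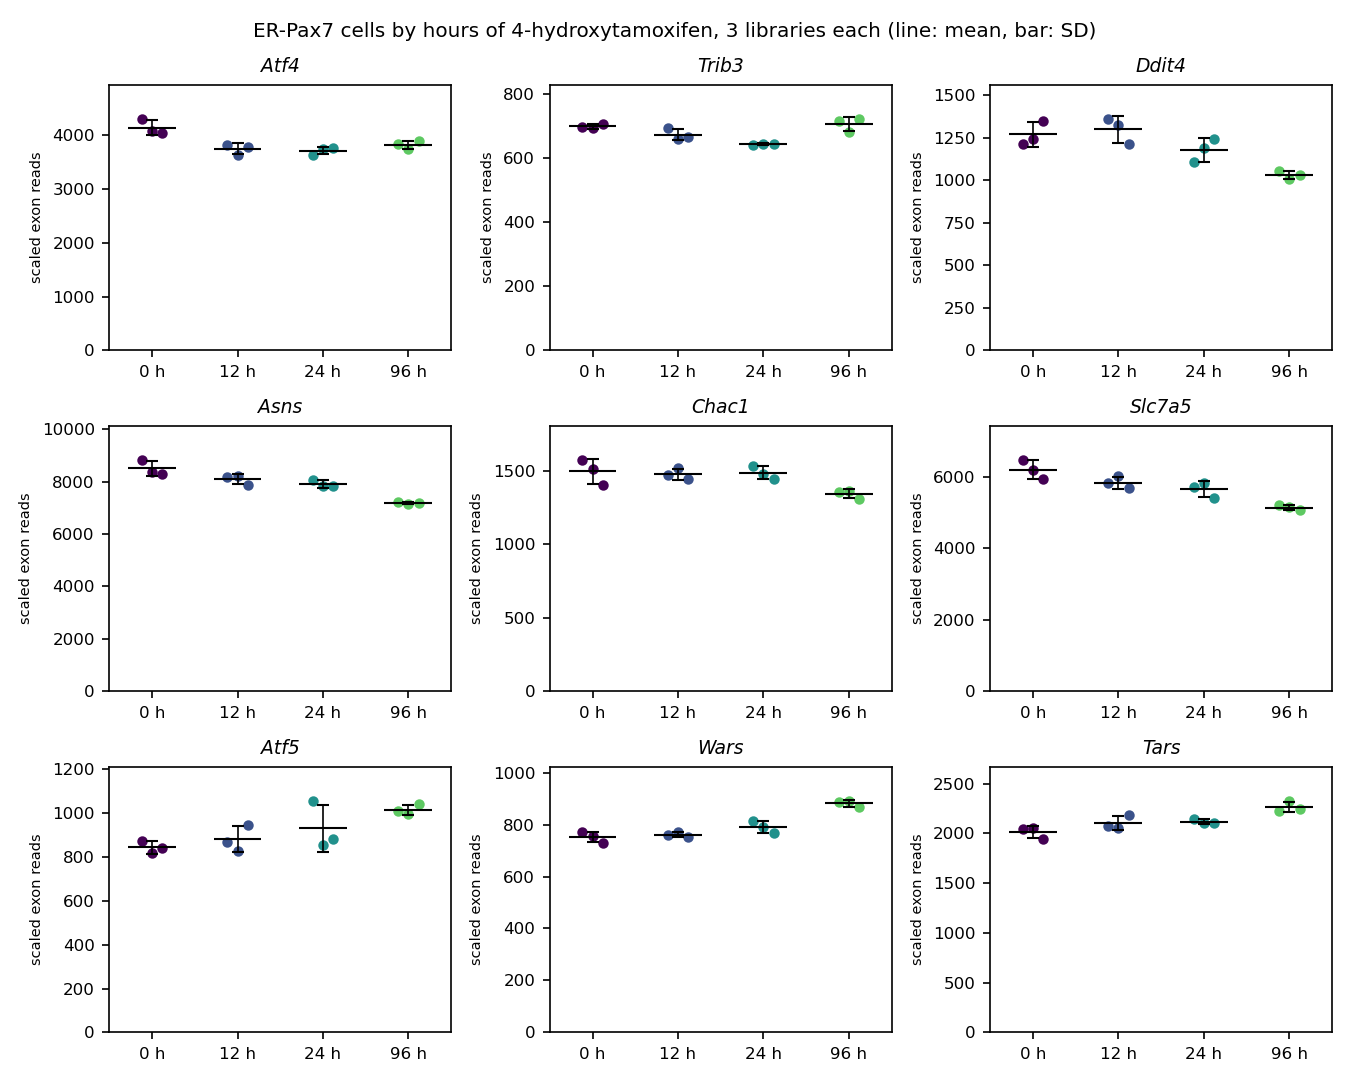
Scaled exon reads of 9 genes in each of 3 ER-Pax7 libraries at 0, 12, 24 and 96 h of 4-hydroxytamoxifen, with group means as lines and SDs as bars. Asns, Slc7a5 and Ddit4 lie lowest at 96 h (7203, 7151 and 7174 for Asns), while Atf5, Wars and Tars lie above their 0 h libraries there.

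Atf4 was the first of the 37 genes to be called. It had 4294, 4075 and 4031 scaled reads at 0 h, 3820, 3630 and 3780 at 12 h, 3632, 3737 and 3761 at 24 h, and 3828, 3743 and 3894 at 96 h. Every treated library lay below every 0 h library, and Atf4 was lower at 12 h (log2 difference -0.14, SE 0.03, adjusted p = 0.0133), 24 h (-0.16, adjusted p = 0.00394) and 96 h (-0.11, adjusted p = 0.0163). The call held at 24 h whichever library was left out. At 12 h it was lost without replicate 1 of 0 h and without replicate 2 of 12 h, the library with 2.345% of its reads on the ribosomal gene Rn45s, against 0.753% to 1.263% in the other ER-Pax7 libraries. At 96 h it was lost without replicate 1 of 0 h or replicate 2 of 96 h.

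Ddit3, Atf5 and Cebpb were the other transcription factors. Ddit3 had 296, 296 and 287 scaled reads at 0 h, 283, 289 and 257 at 12 h, 237, 275 and 263 at 24 h, and 291, 273 and 277 at 96 h. It was lower at 24 h (log2 difference -0.18, SE 0.05, adjusted p = 0.0296) and overlapped the 0 h libraries at 96 h, where it was not called (-0.06, 95% interval -0.18 to 0.05). The 24 h call of Ddit3 was lost without replicate 1 or 2 of 0 h or replicate 1 of 24 h (adjusted p up to 0.19), and without the filter on low values (adjusted p = 0.0601). Atf5 had 872, 816 and 841 scaled reads at 0 h and 1009, 996 and 1041 at 96 h, and it was higher at 96 h (0.27, SE 0.06, adjusted p = 0.00144). At 24 h 1 Atf5 library stood apart at 1054, against 854 and 883. The span of Atf5 overlaps those of Nup62 by 239 bases and of Nup62-il4i1 by 289 bases, both on the opposite strand. The part of their reads was not tested. Cebpb was not called at any time by the main limma fit, with log2 differences of -0.10, -0.15 and -0.16 at 12, 24 and 96 h. Its 95% interval at 96 h was -0.33 to 0.02. With the replicate block, limma called it lower at 96 h (adjusted p = 0.0461).

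Trib3 dipped at 24 h. It had 696, 694 and 708 scaled reads at 0 h, 693, 660 and 668 at 12 h, 641, 645 and 646 at 24 h, and 716, 681 and 722 at 96 h. The 24 h libraries lay below all others, and Trib3 was lower at 24 h than at 0 h (log2 difference -0.12, SE 0.04, adjusted p = 0.0268) and higher at 96 h than at 24 h (0.13, adjusted p = 0.0156). At 96 h it was not called against 0 h (0.01, 95% interval -0.06 to 0.09). Leaving out any of 4 libraries ended the 24 h call.

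Ddit4 and Chac1 were lower at 96 h. Ddit4, an inhibitor of mTORC1, had 1055, 1005 and 1033 scaled reads at 96 h, against 1211, 1245 and 1351 at 0 h. The groups did not overlap, and the difference of -0.30 (SE 0.05, adjusted p = 7.4e-05) was the largest in size of the 37 genes in the time course. Chac1 had 1358, 1364 and 1308 scaled reads at 96 h, against 1571, 1513 and 1402 at 0 h (-0.15, SE 0.04, adjusted p = 0.00527). At 12 and 24 h Chac1 overlapped 0 h, with differences of -0.02 and -0.01. Sesn2 and Ppp1r15a were called at no time.

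Among the enzymes, Asns was lower at 96 h. It had 8816, 8383 and 8308 scaled reads at 0 h, 8179, 8211 and 7886 at 12 h, 8062, 7838 and 7816 at 24 h, and 7203, 7151 and 7174 at 96 h. Its libraries at each treated time lay below those at 0 h. Asns was lower at 96 h (log2 difference -0.24, SE 0.03, adjusted p = 1.5e-05) and, against 24 h, lower again (-0.14, adjusted p = 0.0109). At 24 h against 0 h it was not called by the main limma fit (-0.10, adjusted p = 0.0521). It was called lower there with the replicate block (adjusted p = 0.0136 by limma) and by edgeR (adjusted p = 0.0406). Mthfd2 was lower at 96 h (-0.14, adjusted p = 0.00264), where it had 2070 ± 16.0 scaled reads, against 2280 ± 53.1 at 0 h (SD, n = 3 each). Its call at 24 h (-0.10, adjusted p = 0.0486) was lost with library totals, without the filter, with the 2 groups alone, by edgeR (adjusted p = 0.0591 to 0.115) and without any of 4 libraries. Psat1, Psph, Phgdh and Shmt2 were called at no time, and at 96 h their differences lay between 0.01 and 0.07.

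The LAT1 chains were lower together. Slc7a5 had 6471, 6185 and 5950 scaled reads at 0 h, 5828, 6019 and 5680 at 12 h, 5729, 5846 and 5421 at 24 h, and 5209, 5148 and 5071 at 96 h. Its 96 h libraries lay below all others, with a log2 difference of -0.27 (SE 0.04, adjusted p = 1.6e-05). Slc3a2 had 2795, 2786 and 2784 scaled reads at 96 h, against 3105, 3113 and 3146 at 0 h, again without overlap (-0.16, SE 0.03, adjusted p = 0.000308). Slc7a1 went the other way, with 2188, 2274 and 2367 scaled reads at 96 h, against 1823, 2096 and 2079 at 0 h (0.19, SE 0.06, adjusted p = 0.0123). Its 0 h libraries were spread, and the call was lost without replicate 1 of 0 h or replicate 3 of 96 h. Slc7a11 was called at no time.

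The synthetases were called at 96 h only among the times set against 0 h, and each of the 6 called was higher. Of all genes, 16.5% were higher and 17.3% lower at 96 h. Wars, for tryptophan, had 771, 756 and 730 scaled reads at 0 h, 762, 769 and 754 at 12 h, 815, 792 and 769 at 24 h, and 887, 890 and 867 at 96 h. All 3 libraries at 96 h lay above all others (log2 difference against 0 h 0.23, SE 0.03, adjusted p = 3.1e-05). Tars had 2227, 2323 and 2248 scaled reads at 96 h, against 2045, 2050 and 1940 at 0 h (0.17, SE 0.03, adjusted p = 0.0006). Iars, for isoleucine, had 1968, 2005 and 2035 at 96 h, against 1815, 1826 and 1824 at 0 h (0.14, adjusted p = 0.00197), and Vars had 2518, 2528 and 2405 at 96 h, against 2268, 2257 and 2262 at 0 h (0.13, adjusted p = 0.00414). Hars (0.10) and Eprs (0.09) were also called, but leaving out any of 4 or of 5 libraries, in that order, ended the call. The other 12 lay between -0.07 and 0.07 at 96 h, and the median of all 18 was 0.02. At 12 and 24 h 0 of 18 were called by limma or by edgeR, against 6.53% and 13.6% of all genes by limma. At an unadjusted limma p under 0.05, 5 were higher at 24 h. That threshold was passed at 24 h by 3887 of 15188 genes, in either direction. With scaling by library totals instead of TMM factors, Iars and Vars were called higher at 24 h (0.10 each). The 6 called at 96 h were 4 of 10 class I and 2 of 8 class II enzymes, with Eprs again in class I.

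Setting 96 h against 24 h separated late from early movements. Of the 37 genes 4 were higher (Wars, Trib3, Hars and Eprs) and 5 lower (Ddit4, Chac1, Asns, Slc7a5 and Mars), against 6.03% higher and 6.62% lower (12.6% in all) of all genes, and the groups did not overlap for 12, against 30.7%. Ddit4 had 1105, 1188 and 1240 scaled reads at 24 h, above all 96 h libraries (log2 difference -0.19, adjusted p = 0.0126). Hars had 906, 961 and 921 scaled reads at 96 h, against 864, 845 and 863 at 24 h (0.12, adjusted p = 0.0245). Eprs had 7112, 7277 and 7230 at 96 h, against 6678, 6631 and 6807 at 24 h (0.10, adjusted p = 0.0328). Only Wars and Asns kept their calls whichever library was left out. Lower members numbered 2 without replicate 1 or 2 of 24 h or replicate 2 or 3 of 96 h. Higher members numbered 2 without replicate 2 of 24 h or replicate 1 or 2 of 96 h, and 1 without replicate 3 of 96 h.

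Pax7 against Neo cells and ER-Pax7 cells at 96 h against 0 h, 2 comparisons with no library in common, were then set side by side. Between the 23 genes called in Pax7 against Neo cells and the 15 called at 96 h against 0 h, 8 were common, 4 in the same and 4 in opposite directions. Slc7a1 (0.31 in Pax7 against Neo cells, 0.19 at 96 h against 0 h) and Tars (0.28 and 0.17) were higher in both, and Asns (-0.14 and -0.24) and Mthfd2 (-0.15 and -0.14) lower in both. With scaling by library totals, Asns (-0.06, adjusted p = 0.279), Mthfd2 (-0.07, adjusted p = 0.227) and Vars (-0.11, adjusted p = 0.204) were not called in Pax7 against Neo cells by limma. Chac1 (0.60 and -0.15) and Slc7a5 (0.21 and -0.27) were higher in Pax7 than in Neo cells and lower at 96 h than at 0 h. Eprs (-0.29 and 0.09) and Vars (-0.19 and 0.13) showed the reverse. Of the 8 genes called in both, only Chac1 kept both calls whichever library was left out. Among 12992 genes tested in both tables, 15.6% were called in the same direction and 2.25% in opposite directions. The difference between the comparisons was not tested. Exon reads and gene-body FPKM, introns included, cover different parts of a gene's RNA, so the log2 differences of the 2 comparisons are not of like measures.

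**Figure D5:**
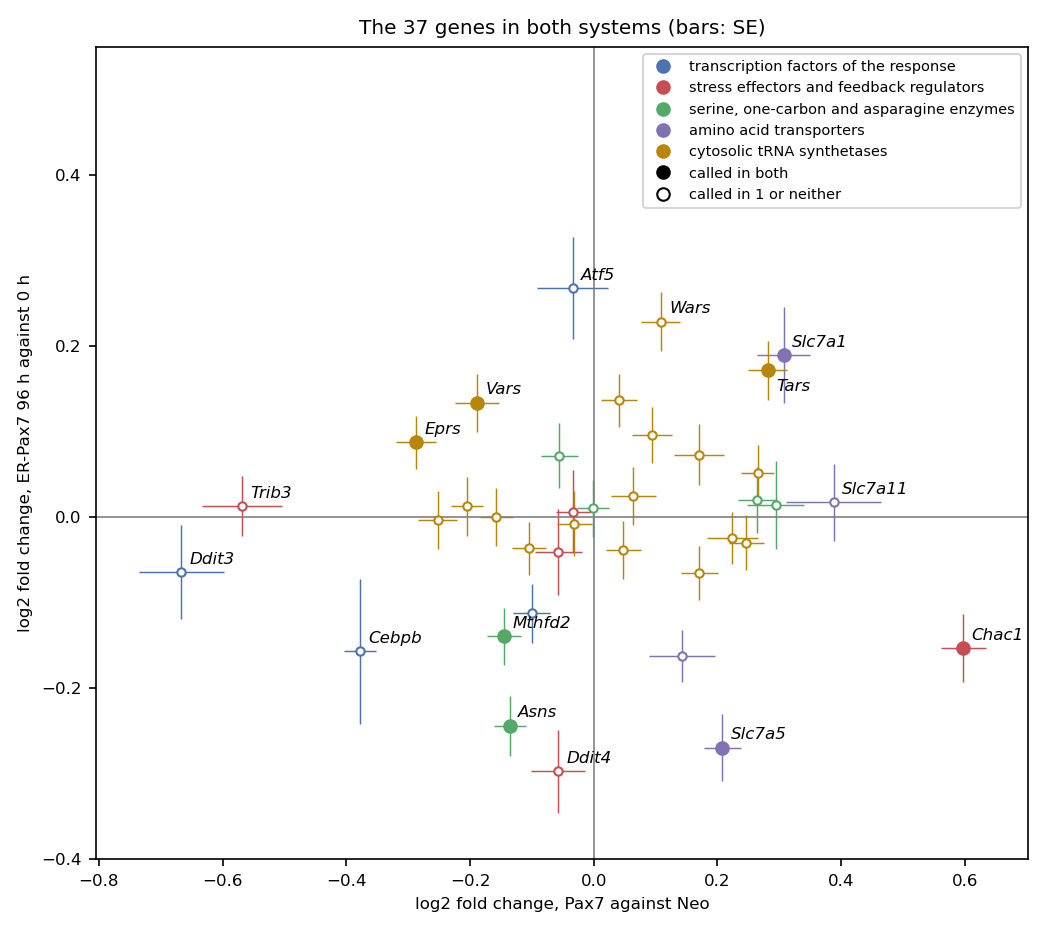
Log2 difference of each of the 37 genes in Pax7 against Neo cells (x axis) and in ER-Pax7 cells at 96 h against 0 h (y axis), with SE as bars and filled points for the 8 genes called in both. Chac1 (0.60 and -0.15) and Slc7a5 (0.21 and -0.27) lie in the lower right corner, and Eprs and Vars in the upper left.

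The 9 genes whose promoters hold TGATGNAA did not share a direction. In Pax7 against Neo cells 4 were higher (Chac1, Slc7a11, Tars and Gars), 4 lower (Trib3, Aars, Asns and Yars) and Iars was not called. Of all genes, 18.1% were higher and 18.5% lower. The median log2 difference of the 9 was 0.04, against -0.04 for the 20 genes with a window and without the motif. With scaling by library totals, Aars, Asns and Yars were not called. Of the 8 called, only Chac1 and Trib3 kept their calls whichever library was left out. At 96 h against 0 h, 2 of the 9 were higher (Tars and Iars) and 2 lower (Asns and Chac1), against 16.5% and 17.3% of all genes. The medians were 0.0002 for the 9 and 0.0016 for the 20.

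Other genes of the pathway, which are not among the 37, were read from the same fits. Their counts stand against 18.1% higher and 18.5% lower of all genes in Pax7 against Neo cells, 2.92% and 3.61% at 12 h, 5.66% and 7.92% at 24 h, and 16.5% and 17.3% at 96 h, and no list was tested against all genes. Of 25 further Atf4 pathway genes, 24 were tested in Pax7 and Neo cells, with 13 higher and 6 lower in Pax7 cells. Among them Fgf21, a secreted hormone of the response, had 231 ± 6.26 FPKM in Pax7 cells and 162 ± 2.12 FPKM in Neo cells (log2 difference 0.51), and the mitochondrial folate enzyme Aldh1l2 had 9.47 ± 0.00775 and 6.64 ± 0.0407 FPKM in Pax7 and Neo cells (0.51). At 12, 24 and 96 h, 3, 4 and 12 of 25 were higher and 2, 2 and 2 lower. At 96 h Sqstm1, a selective autophagy receptor, had 4836 ± 72.8 scaled reads, against 3902 ± 163 at 0 h (0.31). Cbs, an enzyme of cysteine synthesis, had 3.87 ± 0.428 scaled reads at 96 h and 0.492 ± 0.220 at 0 h. At 0 h it lay under the filter of 1 scaled read, so that it was tested only through the treated groups. The 12 higher at 96 h include Cbs, a call that is no support for the count. The same limit holds for Cbs at 12 and 24 h. Gadd45a, a growth arrest gene, was higher at 12, 24 and 96 h (0.22, 0.26 and 0.19) and lower in Pax7 than in Neo cells (-0.30). Gpt2, an alanine aminotransferase, was lower at 12 h (-0.17), and Vldlr, a lipoprotein receptor, at 24 h (-0.18). Against 24 h, Aldh1l2 (0.22) and Gdf15 (0.33), a secreted stress cytokine, were higher at 96 h.

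The lists of further transporters and enzymes held the glutamine carrier Slc38a1, higher in both systems. Of 12 other amino acid transporters tested in Pax7 and Neo cells, 8 were higher in Pax7 cells and 0 lower by limma. At an unadjusted p under 0.05, which 6582 of 13393 genes passed in either direction, they were 8 and 2. Slc38a1 had 3.23 ± 0.136 FPKM in Pax7 cells and 2.01 ± 0.0910 FPKM in Neo cells (log2 difference 0.66). Slc38a1 also had 1396 ± 63.1, 1593 ± 35.2, 1713 ± 104 and 1886 ± 92.9 scaled reads at 0, 12, 24 and 96 h (0.43 at 96 h), where 6 of 15 other transporters were higher and 3 lower. Slc38a9, a lysosomal arginine sensor, was higher in Pax7 cells (0.45), Slc43a2 was lower at 24 h (-0.25), and Slc7a6 was higher at 96 h than at 0 h (0.29) and than at 24 h (0.16), as was the glutamine carrier Slc1a5 than at 24 h (0.12). Of 13 other serine, glycine and folate enzymes, 9 were higher and 2 lower at 96 h, while 4 of 12 were higher and 2 lower in Pax7 cells. Ahcy, which hydrolyses S-adenosylhomocysteine, was higher at 96 h (0.30) and lower in Pax7 cells (-0.18). Mat2a, which makes S-adenosylmethionine, was higher in Pax7 cells (0.31) and at 24 h (0.20), and Dld in Pax7 cells (0.26). Gldc, of the glycine cleavage system, had 10.8 ± 1.62, 7.76 ± 1.03, 3.89 ± 0.398 and 7.57 ± 1.07 scaled reads at 0, 12, 24 and 96 h, and was lower at 24 h (-1.27) and 96 h (-0.46) and, at 96 h, higher than at 24 h (0.81).

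Upstream of Atf4, 15 genes for eIF2 kinases, eIF2 and its exchange factor gave 3 higher and 2 lower in Pax7 cells, 0 calls at 12 and 24 h and 6 higher at 96 h. At an unadjusted limma p under 0.05, 0 were higher at 12 h and 4 at 24 h, and edgeR called 0 at both times. That unadjusted threshold was passed by 2558 of 15188 genes at 12 h and 3887 at 24 h, in either direction. Impact, an inhibitor of Gcn2, had 3.14 ± 0.0352 FPKM in Pax7 cells and 2.17 ± 0.0145 FPKM in Neo cells (log2 difference 0.51), and 789 ± 12.3 scaled reads at 96 h, against 532 ± 26.1 at 0 h (0.57). Eif2b4, a subunit of the exchange factor, was higher in Pax7 cells (0.25), and Eif2ak3, which encodes Perk, at 96 h (0.18). Of the 5 remaining cytosolic synthetase and complex genes, 3 were lower in Pax7 cells, among them Aimp1 (-0.28) and Farsb (-0.21), and 1, Farsa (0.22), was higher, while 3 were higher at 96 h, among them Farsb (0.15) and Farsa (0.15). Of 17 mitochondrial synthetases 7 were higher and 0 lower at 96 h by limma, by edgeR and at an unadjusted p under 0.05. The unadjusted threshold was passed at 96 h by 6489 of 15188 genes, in either direction. Wars2 (0.34) and Rars2 (0.22) led the 7. In Pax7 cells 3 of 16 were higher and 2 lower, among them Cars2 (0.43) and Iars2 (-0.25).

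Chaperones and other targets of the unfolded protein response were lower early in the time course. Of 12, 9 were higher and 1 lower in Pax7 cells. At 12 h 10 were lower and at 24 h 10 were lower, while at 96 h 5 were lower and 2 higher. Hspa5, the main chaperone of the endoplasmic reticulum, had 14279 ± 341, 11743 ± 319, 12245 ± 205 and 14347 ± 20.8 scaled reads at 0, 12, 24 and 96 h. It was lower at 12 h (log2 difference -0.28) and 24 h (-0.22), and higher at 96 h than at 24 h (0.23), as was Hyou1 (0.22). Creld2 was lower at 12 h (-0.32) and 96 h (-0.31), Pdia6 and Sdf2l1 at 24 h (-0.30 and -0.37), and the factor Xbp1 at 96 h (-0.16). In Pax7 cells Hspa5 had 369 ± 12.3 FPKM, against 231 ± 12.4 FPKM in Neo cells (0.68), and Hsp90b1 (0.59) and Pdia6 (0.57) were higher as well. Pomc, the cells' main secretory product, was lower at 24 h than at 0 h (-0.32); its part in these differences was not tested.

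In the authors' deposited table, tested by edgeR per the file headers, an FDR under 0.05 was reached by 0 of the 37 genes between 0 and 12 h, 2 between 0 and 24 h (Slc3a2 and Atf4), 14 between 0 and 96 h and 6 between 24 and 96 h. All of these had the same sign in the authors' deposited table as here and were called here too. Between Neo and Pax7 cells 0 of the 37 reached it in the authors' deposited table, where the smallest FDR was 1, against 23 called here by limma. There Sesn2, Wars, Iars, Phgdh and Rars each had a log2 fold of 0.0. Qars (0.167) and Dars (-0.167) both had p = 0.865 by the authors' edgeR. The values that the authors' test used were not examined, so the 2 counts may not come from like tests.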

How the data were processed

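RNA of AtT-20 cells was sequenced after ribosomal depletion, per the labels' protocols. TopHat, HOMER and edgeR and the build mm10 (GRCm38) are named in the submitters' processing notes. The authors counted exon reads per RefSeq gene without strand in the ER-Pax7 table and deposited them as signal scaled to a common total, per the file headers; low values were whole multiples of 1 read in 100% of cases within 0.1 reads. The Pax7 and Neo table holds FPKM over gene bodies as the authors deposited them, with depth not given. The authors' deposited log2 folds, p-value and FDR columns were used only for comparison.

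Since neither table holds raw counts, each library was scaled by its TMM factor (edgeR 4.0.16) and log2 values were tested in R 4.3.3 with limma 3.58.1, using empirical Bayes with a trend, the 12 ER-Pax7 libraries in 1 model. Genes needed 1 scaled read in 3 libraries or 0.1 FPKM in 2. No label tells whether replicates came from separate cultures; p-values then reflect only how far these libraries scatter, which may be technical. The members and lists were chosen with earlier results of these data known. Of the 37 genes, 8 have another RefSeq entry in the FPKM table, and for Atf5, Dars, Qars and Wars it spans other bases. Named were Atf4, Trib3, Ddit3, the 4 highest and 4 lowest called members of each comparison, those called in both directions, those that lost a call when a library was left out and, of each other list, up to 2 called genes of smallest adjusted p. The scripts were tested on simulated data in which every planted difference was larger than that of most of the 37 genes here. Recovery of smaller differences was not simulated. The alternatives were library totals, a pseudocount 5 times larger, no filter, the replicate block, the 2 groups only, edgeR's quasi-likelihood test on recovered reads, and each library left out.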

Additional observations from a re-analysis of the deposited data

Results flagged for a closer look

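For 8 of the 37 genes, every library of Pax7 cells lay to one side of every Neo library and every ER-Pax7 library at 96 h lay to the other side of every 0 h library; 8.63% of 12992 genes tested in both tables did so. The difference between the comparisons was not tested. Chac1 had log2 differences of 0.60 in Pax7 against Neo cells and -0.15 at 96 h against 0 h, and Slc7a5 of 0.21 and -0.27, all of them called. Eprs had -0.29 in Pax7 against Neo cells and 0.09 at 96 h, and Vars -0.19 and 0.13, again all called. Of these 4 genes, only Chac1 kept both calls whichever library was left out. The Eprs call at 96 h was lost in 5 of 6 such fits. The Pax7 against Neo calls were lost in 3 of 4 for Vars and 2 of 4 for Slc7a5. Slc3a2 had 0.14, not called, in Pax7 against Neo cells and -0.16, called, at 96 h. Cars had 0.22, called, and -0.02, not called, and Mars 0.17, called, and -0.07, not called. The Cars call was lost in 3 of 4 fits with a library left out, and the Mars call in each. Phgdh had -0.06 and 0.07, neither called.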

How the results depend on the processing

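No member called in the main fit or in an alternative had opposite signs in the 2. Signs of members called in neither were not compared. In Pax7 against Neo cells, 12 higher and 11 lower members became 13 and 4 with scaling by library totals; leaving out 1 library left 2 to 9 higher and 4 to 7 lower. In ER-Pax7 cells at 12 h, the 1 lower member (Atf4) became 0 when the 2 groups were tested alone (adjusted p = 0.0514), and 0 to 1 when 1 library was left out. At 24 h, 6 lower members became 3 with library totals or without the filter on low values, and 2 with the 2 groups alone; 0 higher became 2 with library totals (Iars and Vars); leaving out 1 library gave 0 to 1 higher and 2 to 6 lower. At 96 h against 0 h, leaving out 1 library gave 5 to 8 higher and 6 to 8 lower, against 8 and 7. At 96 h against 24 h, 5 lower members became 3 without the filter, and leaving out 1 library gave 1 to 4 higher and 2 to 5 lower, against 4 and 5. The cause of these changes was not tested.

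Deviations of same-numbered ER-Pax7 libraries correlated at -0.082 to 0.144, with 1 of 18 over 0.1. Those of differently numbered ones correlated at -0.128 to 0.098, with 0 of 36 over 0.1. In Pax7 and Neo the values were 0.037 and -0.037, which mirror each other because each group has 2 libraries. Whether replicate numbers mark weak pairs was not tested. With the replicate block, lower members of Pax7 against Neo were 6 and higher members at 24 h were 2, and Cebpb was called lower at 96 h (-0.16, adjusted p = 0.0461 by limma). Pax7 and Neo cells have 2 libraries each and no depth given, which limits the precision of their comparison.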
